A study of Mus musculus with 9 samples.

Results

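Lung gene expression was compared between FVB/N and SV129 mice on 6 of the 9 arrays analysed here, taken by the strain in each array's title. Every array measured RNA of whole right lung. Each strain had 2 hypoxic arrays, of mice held for 4 weeks at a reduced pressure of 50 kPa, and 1 normoxic array, of mice held for the same time at the 85 kPa of Denver. The remaining 3 arrays are of C57BL/6 (BL6) lung. They were normalized together with the other 6, enter the test of the interaction with hypoxia, and serve elsewhere as a point of reference. The labels name no allele, transgene or drug in either strain. Age, sex and the SV129 substrain are not given in the sources used here. Nothing states that the arrays are of separate animals, so p-values measure the spread between these arrays, which may be technical.

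FVB/N and the 129 strains are separately inbred lines, and each is fixed for one allele at nearly every locus. The major histocompatibility complex (MHC), the interferon-inducible gene clusters and the complement genes are known to differ widely between such lines in sequence, copy number and expression. Whole lung also holds macrophages, lymphocytes, plasma cells and platelets beside its epithelium, vessels and matrix, and an array probe can read differently where the strains differ in the sequence it covers.

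Levels are given as log2(signal + 16) after quantile normalization, a scale on which a signal of 0 reads 4 and 1 unit is a 2-fold change. A level near 4 cannot be told from background, and the size of a difference from such a level depends on the constant of 16. Differences are FVB/N minus SV129 with condition as a covariate, each with its standard error (SE). The threshold was a Benjamini-Hochberg adjusted p below 0.05 from limma's moderated linear model over all probe sets tested. The lung markers Sftpc of alveolar type 2 cells, Ager of type 1 cells and Scgb1a1 of airway secretory cells averaged 14.87, 14.65 and 15.06 in FVB/N and 14.79, 14.82 and 15.02 in SV129. Scgb1a1 read the same 15.06 on every FVB/N array and on both hypoxic SV129 arrays. Of the 18 tested type 2 genes, 15 were lower in FVB/N, so Sftpc does not stand for that list. The normoxic FVB/N array stood apart from the rest. On it the mean of the 7 tested kidney genes was 12.19, where the other 5 arrays had 7.37 to 7.75, and the mean of the 20 heart and skeletal muscle genes was 10.74, where they had 8.95 to 9.37. It correlated with the hypoxic FVB/N arrays at 0.907 and 0.912 across probe sets, while those correlated with each other at 0.976. The comparison was therefore also fitted to the 5 arrays without it. Genes whose arrays did not overlap were ranked by the smaller in size of their differences on 6 and on 5 arrays. The first 14 in each direction, called the 14 largest differences below, also passed on 5 arrays, which this ranking favours. A named gene that passed on 6 arrays and not on 5 is given as such. The hypoxic SV129 arrays correlated with each other at 0.949, and array 2 with the normoxic SV129 array at 0.97.

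The widest differences between the strains included the MHC genes H2-Ea, higher in FVB/N, and H2-Eb1, higher in SV129. They also included Gbp2b and Mndal, which are interferon-inducible, and the alveolar macrophage receptor Marco, all higher in SV129. Another was the platelet gene Ppbp, higher in FVB/N. Among 27022 probe sets tested, 531 (1.97%) passed the threshold, 198 of them higher in FVB/N and 333 higher in SV129. A further view through the brightest probe set of each of 12721 genes left 233 genes past the threshold (1.83%), 80 higher in FVB/N (0.629%) and 153 higher in SV129 (1.2%). The 1.83% is the share beside which each count of list members past the threshold is to be read. The difference was at least 1 unit in 221 of the 233, at least 2 in 77 and at least 4 in 10. Over all genes tested the median difference was -0.03, and 0 on 5 arrays.

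Without the normoxic FVB/N array, 133 genes passed (1.05%), and 109 of the 233 were among them, 45 higher in FVB/N and 64 higher in SV129. In 231 of the 233, both hypoxic FVB/N arrays lay on the same side of all 3 SV129 arrays, in the direction of the 6-array difference. Such separation on 5 arrays, in either direction, was found in 33.1% of all genes tested, and that of all 3 arrays of each strain in 18.1%. The 233 genes were called on a fit that holds these same 5 arrays, so their separation is a description and no separate check. The exceptions were Snai2, a transcription factor of mesenchymal cells (-0.98 ± 0.194 SE, limma adjusted p = 0.0425), and Adamts1, a matrix protease (-0.95 ± 0.187 SE, limma adjusted p = 0.0418). In both the normoxic SV129 array fell among the hypoxic FVB/N arrays, and neither passed on 5 arrays. In 13 of the 233 the normoxic FVB/N array lay more than 1 unit beyond the hypoxic FVB/N mean in the direction of the difference. The widest was Amacr, a peroxisomal racemase of fatty acid and bile acid metabolism, which read 12.99 there against 8.9 and 8.82 on the hypoxic FVB/N arrays. Amacr was chosen after its values were seen. Its difference of 3.41 ± 0.701 (SE) on 6 arrays became 2.01 on 5 (limma adjusted p = 0.0242), with 6.73 to 6.96 in SV129.

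**Figure D1:**
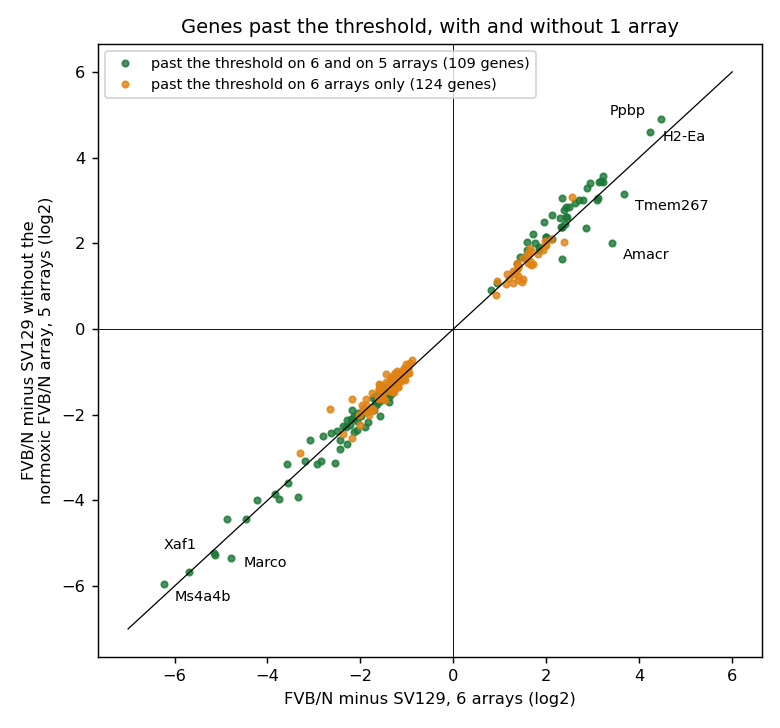
Differences of the 233 genes past the threshold, FVB/N minus SV129 in log2 units, on all 6 arrays (horizontal axis) and on the 5 arrays without the normoxic FVB/N array (vertical axis). Each point is a gene, and the line marks equal values. The 109 genes also past the threshold on 5 arrays and the rest lie along the line, with Amacr and Tmem267 below it.

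The MHC class II genes H2-Ea and H2-Eb1, which encode the alpha and beta chain of the I-E antigen-presenting molecule, differed by more than 4 units in opposite directions. H2-Ea, on chromosome 17, read 9.79 and 9.92 on the hypoxic FVB/N arrays and 8.19 on the normoxic one, against 4.98, 5.53 and 4.68 in SV129. The SV129 arrays thus lay near the value of a signal of 0 and FVB/N far above it, with no overlap. The difference was 4.24 ± 0.316 (SE, limma adjusted p = 4.33e-04), and 4.6 on 5 arrays. A second H2-Ea probe set gave 3.66 ± 0.366 (limma adjusted p = 0.00189). The BL6 arrays read 4.87 to 5.25, beside SV129. It is background knowledge that C57BL/6 and many 129 strains carry a deletion in the H2-Ea promoter. Its part in the difference was not tested, and these RNA levels do not show whether FVB/N makes an I-E alpha chain.

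H2-Eb1 ran the other way, at 8.63, 9.1 and 8.44 in FVB/N and 12.95, 12.75 and 13.17 in SV129. No FVB/N array came within 3 units of an SV129 array. The difference was -4.23 ± 0.231 (SE, limma adjusted p = 9.56e-05), and -3.99 on 5 arrays, and the BL6 arrays read 13.21 to 13.37. H2-Ea and H2-Eb1 were the 2 of 11 tested class II genes past the threshold, against the 1.83% of all genes, and the list's median difference was -0.16. Cd74, the invariant chain that escorts class II molecules, differed by -0.12 (adjusted p = 0.787, limma), and H2-Ab1, the beta chain of I-A, by 0.08 (adjusted p = 0.923, limma).

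H2-Aa, the alpha chain of I-A, depended on which of its 4 tested probe sets was read. The brightest averaged 12.8 in FVB/N and 13.6 in SV129, a difference of -0.8 that missed the threshold (limma adjusted p = 0.0585). A second probe set read 9.09, 9.39 and 9.64 in FVB/N against 13, 13.74 and 13.3 in SV129, a difference of -3.97 ± 0.238 (SE, limma adjusted p = 1.35e-04). A dimmer one ran the same way, at 5.18, 5.73 and 5.87 against 8.56, 8.22 and 9.53, a difference of -3.18 ± 0.295 (SE, limma adjusted p = 0.00131). The last read 13.86, 14.15 and 13.53 against 12.23, 11.39 and 12.53, a difference of 1.8 ± 0.291 the opposite way (SE, limma adjusted p = 0.0179). The probe sets past the threshold were thus 2 higher in SV129 and 1 higher in FVB/N, each without overlap of the strains, and they settle no direction for H2-Aa.

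The 250 bases upstream of H2-Eb1 and H2-Aa are shown because H2-Eb1 passed the threshold and H2-Aa had probe sets past it in both directions. The sequences are RefSeq's for GRCm38.p6, the C57BL/6J reference and neither strain's own, at chr17:34305617-34305866 on the plus strand for H2-Eb1 and chr17:34287824-34288073 on the minus strand for H2-Aa. Capitals mark the Y box, the CCAAT-type element of class II promoters, searched as CTGATTGG on both strands. It was found in 3.83% of the 32851 promoters of that length in the table, and in both of these. A match describes the letters only, and H2-Ea has no entry in that table.
H2-Eb1: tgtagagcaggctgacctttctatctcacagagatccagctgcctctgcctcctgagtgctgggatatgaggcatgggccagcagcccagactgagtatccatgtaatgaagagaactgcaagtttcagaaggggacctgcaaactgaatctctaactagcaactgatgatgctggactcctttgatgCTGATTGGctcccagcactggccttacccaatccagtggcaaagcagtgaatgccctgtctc
H2-Aa: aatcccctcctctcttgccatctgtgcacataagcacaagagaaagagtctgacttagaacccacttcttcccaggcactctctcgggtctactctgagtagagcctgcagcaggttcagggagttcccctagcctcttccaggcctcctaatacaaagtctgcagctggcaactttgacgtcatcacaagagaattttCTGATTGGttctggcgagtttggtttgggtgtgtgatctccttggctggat

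Of the 13 tested genes of MHC class I and peptide loading, H2-M3 alone passed the threshold in its brightest probe set. H2-M3, a class Ib gene whose product presents formylated peptides, read 10.78, 10.88 and 9.97 in FVB/N against 8.4, 8.98 and 8.25 in SV129, without overlap. The difference was 2 ± 0.236 (SE, limma adjusted p = 0.00406). The classical genes H2-K1 and H2-D1 differed by 0.24 and 0.52 in their brightest probe sets (adjusted p = 0.515 and 0.0942, limma), and B2m, the class I light chain, by 0.03. A dimmer H2-D1 probe set did pass, at 11.77, 11.8 and 10.61 in FVB/N against 9.91, 9.77 and 10.11 in SV129, a difference of 1.46 ± 0.29 (SE, limma adjusted p = 0.0429) and of 1.94 on 5 arrays (limma adjusted p = 0.0073). Another, at 1.08, passed on 5 arrays alone, at 1.47 (limma adjusted p = 0.025).

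**Figure D2:**
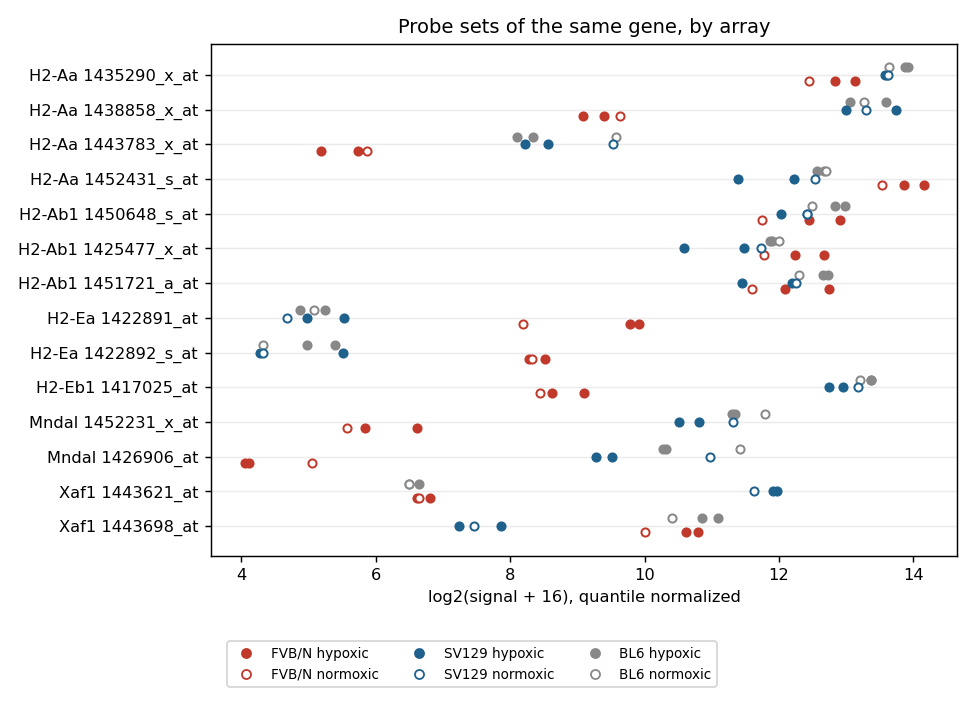
Levels of each tested probe set of H2-Aa, H2-Ab1, H2-Ea, H2-Eb1, Mndal and Xaf1 on the 9 arrays, in log2(signal + 16). Filled points are hypoxic and open points normoxic arrays, in red for FVB/N, blue for SV129 and grey for BL6. The H2-Ea and Mndal probe sets each run one way, while those of H2-Aa and Xaf1 run both ways.

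Of the 14 largest differences higher in SV129, 3 were those of the interferon-inducible genes Gbp2b, Mndal and Xaf1, although the other probe set of Xaf1 gave 2.95, higher in FVB/N. Most members of their families did not pass the threshold. Gbp2b (also known as Gbp1), a guanylate-binding protein of cell-autonomous defence, read 5.31, 4.53 and 5.48 in FVB/N against 10.08, 10.32 and 10.29 in SV129. SV129 was higher on every array, by -5.12 ± 0.288 (SE, limma adjusted p = 9.56e-05), and BL6 read 5.72 to 5.89, near FVB/N. It was the 1 of 12 tested interferon-inducible GTPases past the threshold. The other 11 included Gbp2 at 0.68, Iigp1 at 0.63 and Irgm1 at 0.38, none past it, and 10 of the 12 differences were positive, with a median of 0.5.

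Within the Ifi200 family of DNA-sensing proteins, 2 of 5 tested genes passed, where 1.83% of all genes did. These follow one another among the tested genes of chromosome 1 and had opposite signs. Mndal read 6.62, 5.84 and 5.57 in FVB/N and 10.51, 10.81 and 11.32 in SV129, a difference of -4.87 ± 0.341 (SE, limma adjusted p = 3.13e-04). A second Mndal probe set gave -5.52 ± 0.265 (limma adjusted p = 5.51e-05). Ifi204 was higher in FVB/N, at 7.46, 7.3 and 7.26 against 4.96, 4.92 and 4.95, by 2.4 ± 0.276 (SE, limma adjusted p = 0.00375). The arrays of the strains were well apart in both genes. These paralogs are close in sequence, and their values are uncertain to that extent.

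Xaf1, an interferon-induced partner of the apoptosis inhibitor XIAP, was the 1 of 23 tested type I interferon response genes past the threshold. Its brightest probe set read 6.8, 6.61 and 6.64 in FVB/N against 11.91, 11.97 and 11.63 in SV129, a difference of -5.15 ± 0.207 (SE, limma adjusted p = 4.76e-05). The other probe set read 10.61, 10.79 and 10 against 7.87, 7.24 and 7.46, a difference of 2.95 ± 0.26 (SE, limma adjusted p = 9.86e-04). The probe sets thus gave opposite directions on the same arrays, and the data settle no direction for Xaf1. The list's median was -0.08, with Ifit1 at -0.21 and Irf7 at -0.48, neither past the threshold.

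The upstream sequences of Gbp2b and Mndal are shown because both genes were higher in SV129 by more than 4 units. They are again RefSeq's for GRCm38.p6, at chr3:142594597-142594846 on the plus strand and chr1:173879959-173880208 on the minus strand. Capitals mark an interferon-stimulated element searched on both strands as GAAA followed, after any 2 bases, by GAAA, found in 2.98% of the promoters in the table. It lies on the opposite strand in both, and Xaf1 has no match in its own 250 bases.
Gbp2b: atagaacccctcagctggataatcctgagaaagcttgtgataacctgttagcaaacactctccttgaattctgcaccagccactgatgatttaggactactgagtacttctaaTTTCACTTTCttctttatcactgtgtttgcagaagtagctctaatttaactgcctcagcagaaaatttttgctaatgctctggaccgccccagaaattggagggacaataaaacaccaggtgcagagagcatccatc
Mndal: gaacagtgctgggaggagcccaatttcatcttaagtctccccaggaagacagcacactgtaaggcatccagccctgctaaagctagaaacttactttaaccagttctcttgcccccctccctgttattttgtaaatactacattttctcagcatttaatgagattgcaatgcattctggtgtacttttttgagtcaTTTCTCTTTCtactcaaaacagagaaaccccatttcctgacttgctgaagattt

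Genes with known variants among inbred strains included 3 of 25 tested past the threshold, against 1.83% of all genes. Casp4, the sensor of intracellular lipopolysaccharide that 129 strains are known to carry in an inactive form, read 8.39, 8.53 and 8.43 in FVB/N against 6.58, 6.63 and 6.61 in SV129. The difference was 1.84 ± 0.234 (SE, limma adjusted p = 0.00556), and no arrays overlapped. Hc, which encodes complement C5 and is known to be deficient in FVB/N, read 11.37, 11.35 and 10.54 against 12.58, 13.11 and 12.31, lower on every FVB/N array. Its difference was -1.58 ± 0.192 (SE, limma adjusted p = 0.00437), and it was the 1 of 18 tested complement genes past the threshold. It was also the 1 of 18 on the alveolar type 2 list. Gpnmb, a glycoprotein of macrophages and melanocytes, was higher in SV129, by -2.14 ± 0.274 (SE, limma adjusted p = 0.00573).

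Ms4a4b, a membrane protein of T cells, was among the genes with the largest differences. It read 4.29, 4.95 and 4.12 in FVB/N, close to the value of a signal of 0, against 10.44, 10.71 and 10.9 in SV129. The difference was -6.23 ± 0.299 (SE, limma adjusted p = 5.51e-05), and BL6 read 10.07 to 10.36. The T cell markers Cd3e and Cd8a differed by 0.69 and -0.03 (adjusted p = 0.214 and 0.971, limma). The T and NK cell list had a median of 0.52 (0.99 on 5 arrays), and 16 of its 19 differences were positive. In limma 9 of the 19 were at an unadjusted p below 0.05, where 13.9% of all genes were. The 1 gene of the list past the threshold, Nkg7 of cytotoxic granules, was higher in FVB/N by 1.58 ± 0.321 (SE, limma adjusted p = 0.0471). Leaving out any 1 of the hypoxic arrays ended the call of Nkg7, with adjusted p values up to 0.202 in limma.

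BC018473, a gene with no assigned role here, and St6galnac1, a sialyltransferase of mucin-type glycans, are successive tested genes of chromosome 11. Both were higher in SV129. BC018473 read 4.22, 4.32 and 4.31 in FVB/N against 10.17, 9.7 and 10.04 in SV129, a difference of -5.69 ± 0.26 (SE, limma adjusted p = 5.51e-05). BL6 read 4.27 to 4.4, so SV129 stood alone among the 3 strains. St6galnac1 differed by -3.2 ± 0.348 (SE, limma adjusted p = 0.00271). Psca, a surface protein of epithelia, gave the same picture, at 4.44 to 4.55 in FVB/N, 4.56 to 4.72 in BL6 and 9.6, 8.2 and 9.08 in SV129. Its difference was -4.47 ± 0.373 (SE, limma adjusted p = 8.59e-04), and the next tested gene on chromosome 15, Them6, differed by -2.37 ± 0.352 (SE, limma adjusted p = 0.0122). Them6 missed the threshold on 5 arrays (-2.46, limma adjusted p = 0.0548) and passed in 2 of the 6 fits without 1 array.

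**Figure D3:**
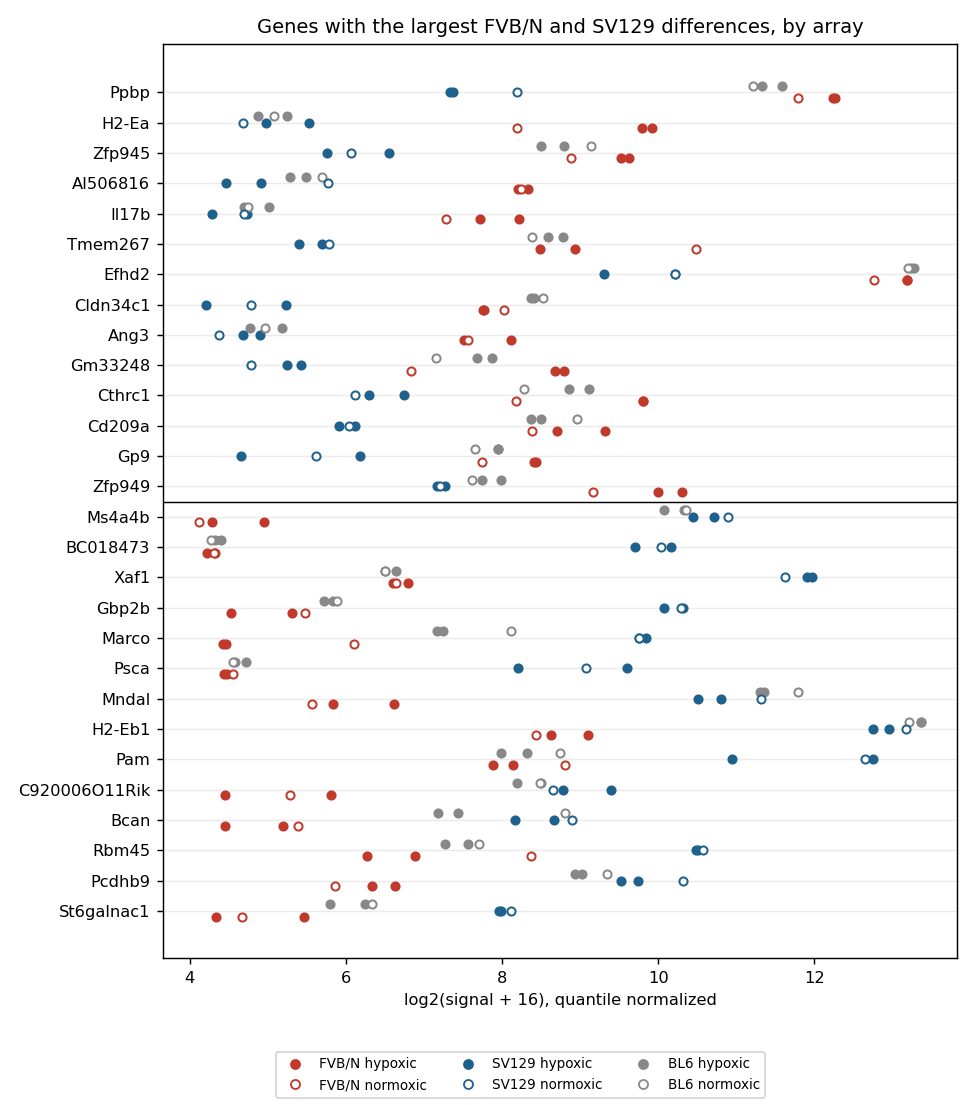
Levels of the 14 genes with the largest differences higher in FVB/N (above the line) and the 14 higher in SV129 (below it) on the 9 arrays, in log2(signal + 16). Filled points are hypoxic and open points normoxic arrays, in red for FVB/N, blue for SV129 and grey for BL6. The red and blue points do not overlap in any of the 28 genes, because only genes without such overlap were ranked. The grey points, which had no part in the ranking, lie with red in some and with blue in others.

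Further genes with large differences had varied roles. Higher in SV129 were Pam, the enzyme that amidates secreted peptides (-3.84), the proteoglycan Bcan (-3.56), the RNA-binding protein Rbm45 (-3.35), the protocadherin Pcdhb9 (-3.59) and the transcript C920006O11Rik (-3.76). Their limma adjusted p values ran from 9.2e-04 to 0.00259. Within SV129 the level of Pam varied, at 12.75, 10.95 and 12.65, and all 3 were above the 7.88 to 8.81 of FVB/N. Higher in FVB/N were the zinc finger genes Zfp945 (3.22) and Zfp949 (2.61), the secreted cytokine Il17b (3.17), the ribonuclease Ang3 (3.08), the matrix-associated Cthrc1 (2.88), the dendritic cell lectin Cd209a (2.78) and the calcium-binding Efhd2 (3.13). AI506816 (3.21), Tmem267 (3.68), Cldn34c1 (3.11) and Gm33248 (2.95) complete the group, with limma adjusted p from 9.86e-04 to 0.00367. A second probe set of Zfp945 gave -0.65 (limma adjusted p = 0.51), and one of Efhd2 gave 0.7 (limma adjusted p = 0.37), neither past the threshold.

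Of 21 tested platelet and megakaryocyte genes, 9 passed the threshold, all higher in FVB/N, and 12 did not, where 1.83% of all genes passed. The list was drawn up after Ppbp and Gp9 had been seen to differ, so its counts are a description. Of the 21 differences 16 were positive and 5 negative, and the median was 1.36 against -0.03 over all genes. Ppbp, the platelet basic protein chemokine precursor, read 12.26, 12.24 and 11.79 in FVB/N against 7.37, 7.34 and 8.19 in SV129, a difference of 4.46 ± 0.28 (SE, limma adjusted p = 1.68e-04). It was the widest difference among genes higher in FVB/N, and BL6 read 11.22 to 11.59, near FVB/N. The next tested gene after Ppbp on chromosome 5, Pf4 (platelet factor 4), read 11.23, 10.86 and 10.85 against 9.77, 9.26 and 9.83, a difference of 1.36 ± 0.234 (SE, limma adjusted p = 0.0228).

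Receptor genes of the platelet surface were among the 9. Gp9 and Gp1bb, subunits of the receptor for von Willebrand factor, differed by 2.71 ± 0.412 and 2.44 ± 0.288 (SE, limma adjusted p = 0.0135 and 0.00403). Gp9 read 8.41, 8.44 and 7.74 in FVB/N against 6.18, 4.66 and 5.62. The fibrinogen receptor genes Itga2b and Itgb3 differed by 1.43 and 1.58, the platelet tubulin Tubb1 by 2.43, the podoplanin receptor Clec1b by 2.13 and the G protein regulator Rgs18 by 1.71, with limma adjusted p from 0.0121 to 0.0424. No FVB/N array overlapped an SV129 array in any of these 9 genes. Such separation held in 228 of the 233 genes past the threshold and in 18.1% of all genes tested. On 5 arrays 8 of the 9 passed, where 109 of the 233 did, and Pf4 had an adjusted p of 0.0504 (limma). Of the 12 that did not pass, the surface proteins Gp5, Treml1, P2ry12 and F2rl2 differed by 1.49, 1.61, 1.02 and 0.9, and Gata1, Nfe2 and Fli1, transcription factors of the lineage, by 0.29, 0.28 and 0.33. The differences of Thbs1, Selp, Vwf, Mrvi1 and Plek were negative, at -0.62, -0.4, -0.33, -0.28 and -0.09.

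The mean level of the 21 genes was 9.18, 9.23 and 8.8 on the FVB/N arrays, 8.01, 7.61 and 8.09 on the SV129 arrays and 8.69 to 8.8 on the BL6 arrays. With 1 array left out, Gp9 and Tubb1 lost their call in 2 of 6 cases, Clec1b, Rgs18 and Itga2b in 4 and Pf4 in 5, always with the same direction. Itgb3 was followed only in the fit without the normoxic FVB/N array, where it passed. Of the 7 tested red cell genes 0 passed in limma, 3 were at an unadjusted p below 0.05, and the median difference was 0.44. In whole lung, fewer cells of a type and less RNA per cell cannot be told apart, here or in the groups that follow.

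**Figure D4:**
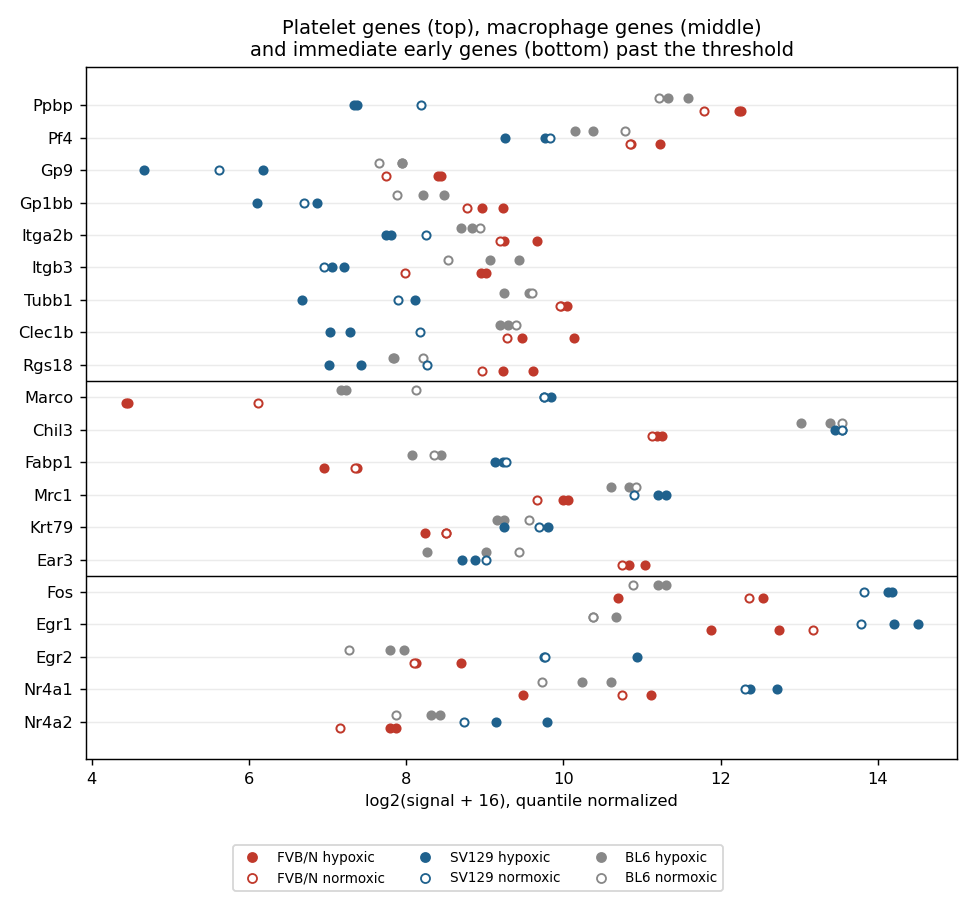
Levels of the platelet genes (top), alveolar macrophage genes (middle) and immediate early genes (bottom) past the threshold on the 9 arrays, in log2(signal + 16). Filled points are hypoxic and open points normoxic arrays, in red for FVB/N, blue for SV129 and grey for BL6. Red lies to the right of blue in the platelet genes and in Ear3, and to the left in the other macrophage genes and the immediate early genes.

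Alveolar macrophages clear particles and surfactant from the airspaces. Of their 20 tested genes, 5 passed the threshold lower in FVB/N and 1 higher, where 1.83% of all genes passed. The scavenger receptor Marco read 4.43, 4.46 and 6.11 in FVB/N against 9.84, 9.75 and 9.75 in SV129, a difference of -4.78 ± 0.36 (SE, limma adjusted p = 4.33e-04). It was near the value of a signal of 0 on both hypoxic FVB/N arrays, and BL6, at 7.17 to 8.12, lay between the strains. A second Marco probe set gave -3.15 ± 0.391 (limma adjusted p = 0.0049). Chil3, a chitinase-like lectin, read 11.25, 11.19 and 11.13 against 13.45, 13.55 and 13.54, a difference of -2.32 ± 0.151 (SE, limma adjusted p = 2.17e-04). The replicates of each strain lay within 0.2 units of each other.

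The lipid-binding Fabp1, the mannose receptor Mrc1 and the keratin Krt79 were also lower in FVB/N, by -1.99, -1.23 and -1.16 (adjusted p = 0.00401, 0.0114 and 0.0488, limma). Ear3, an eosinophil-associated ribonuclease, was the exception, at 10.83, 11.04 and 10.74 in FVB/N against 8.71, 8.88 and 9.02 in SV129, higher by 2 ± 0.209 (SE, limma adjusted p = 0.00226). The list's median difference was -0.72, and -0.88 on 5 arrays, and 17 of the 20 differences were negative. The general marker Siglecf differed by -0.66, Itgax by -0.21 and Cd68 by -0.7, none past the threshold (adjusted p = 0.348, 0.744 and 0.188, limma). Krt79 passed in none of the fits that left out 1 array, and Mrc1 in 4 of 6. Atp6v0d2, a proton pump subunit, passed on 5 arrays alone (-1.58, limma adjusted p = 0.0456).

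Of 16 tested immunoglobulin, B and plasma cell genes, 2 passed the threshold, Igha and Jchain, both higher in SV129, against 1.83% of all genes. Igha, the IgA heavy chain, read 9.84, 10.89 and 10.46 in FVB/N against 12.51, 12.51 and 12.39 in SV129, a difference of -2.08 ± 0.264 (SE, limma adjusted p = 0.00556). Its other tested probe sets gave -2.05 and -1.19, both past the threshold, the second not on 5 arrays. Jchain, which links IgA and IgM subunits, differed by -1.68 ± 0.214 (SE, limma adjusted p = 0.00562). Of the 16 differences 11 were positive and 5 negative, with a median of 0.13, and Fcer2a, the low-affinity IgE receptor of B cells, passed on 5 arrays alone (1.74, limma adjusted p = 0.0302). Ighm differed by 0.45 and the B cell marker Ms4a1 by 0.14 (adjusted p = 0.451 and 0.894, limma).

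Among 10 tested neutrophil granule genes, the calprotectin subunit S100a8 passed. It read 12.58, 13.47 and 12.86 in FVB/N against 9.44, 10.48 and 11.96 in SV129, a difference of 2.34 ± 0.463 (SE, limma adjusted p = 0.0421). SV129 spanned over 2 units, and leaving out 1 array ended the call in 4 of 6 cases. Its partner S100a9 differed by 2.7 without passing (limma adjusted p = 0.0631), and the list's median was 0.75.

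Of 32 tested matrix genes, 3 passed the threshold, all higher in SV129, against 1.83% of all genes. The difference was negative in 31 of the 32, with a median of -0.51 (-0.4 on 5 arrays). Eln, which encodes elastin, read 10.86, 11.22 and 9.94 in FVB/N against 12.36, 12.49 and 11.24 in SV129. Both strains had their lowest Eln level on the normoxic array, and within each condition FVB/N was lower, by -1.36 ± 0.182 in the fit (SE, limma adjusted p = 0.00736). Col1a1, the main chain of type I collagen, differed by -1.29 ± 0.207 and the matricellular Tnc by -1.49 ± 0.223 (SE, limma adjusted p = 0.0168 and 0.0124). All 3 also passed on 5 arrays, and a second Col1a1 probe set gave -0.4 (limma adjusted p = 0.562). Leaving out 1 array ended the call of Eln in 1 of 6 cases and those of Col1a1 and Tnc in 3. Col3a1 differed by -0.57 and Fn1 by -0.76, neither past the threshold.

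Immediate early genes are transcription factors that rise within minutes of a stimulus or of tissue handling. Of 25 tested, 5 passed the threshold, all lower in FVB/N, where 1.83% of all genes passed. Fos read 10.7, 12.54 and 12.36 in FVB/N against 14.18, 14.13 and 13.83 in SV129, a difference of -2.18 ± 0.418 (SE, limma adjusted p = 0.0375). The FVB/N arrays spanned nearly 2 units and all lay below SV129. Nr4a1, Egr2, Nr4a2 and Egr1 differed by -2.01, -1.85, -1.61 and -1.57 (adjusted p = 0.0342, 0.0275, 0.0149 and 0.0459, limma). The list's median was -0.69 and 23 of its 25 differences were negative. Of the 5 genes Egr1 alone passed on 5 arrays, and each lost its call in at least 4 of the 6 fits without 1 array. BL6 read 10.88 to 11.3 in Fos and 10.38 to 10.67 in Egr1.

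Of 20 tested glucocorticoid response and stress genes, 2 passed, where 1.83% of all genes did. These were the heat shock chaperones Hspa1b and Hsph1, higher in FVB/N by 2.56 ± 0.528 and 1.97 ± 0.315 (SE, limma adjusted p = 0.0493 and 0.0168). Hspa1b read 11.01, 13.24 and 11.79 in FVB/N against 9.13, 8.97 and 10.26. Neither passed on 5 arrays. The other heat shock genes of the list, Hspa1a, Dnajb1 and Hspb1, differed by 1.25, 0.27 and 0.42 without passing, and 12 of the 20 differences were negative, with a median of -0.35. In the circadian clock list 0 of 16 passed in limma, with 3 at an unadjusted p below 0.05. Hypoxic SV129 array 5 stood apart there, with the clock output gene Dbp at 9.27 against 12.14 to 12.89 on the other 5 arrays, and Arntl at 9.75 against 6.65 to 8.49.

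Few genes of the lung's structural cell types passed the threshold, though in some lists nearly all differences were negative. Of 19 tested ciliated cell genes, the dynein light chain Dynlrb2 passed, higher in SV129 by -1.27 ± 0.257 (SE, limma adjusted p = 0.0455), though not on 5 arrays. The list's median was -0.67, 18 of 19 differences were negative and 12 genes were at an unadjusted p below 0.05 in limma. In the smooth muscle and pericyte list 0 of 20 passed (9 at an unadjusted p below 0.05 in limma, median -0.47). There 19 of the 20 differences were negative, with Acta2 at -0.46 and Myh11 at -0.5. The endothelial list also had 0 of 25 past the threshold (3 unadjusted, median -0.03), though its gene Tmem100 passed on 5 arrays (0.95, limma adjusted p = 0.025). The type 1 (0 of 14, 1 unadjusted) and airway secretory lists (0 of 18, 5 unadjusted) had medians of -0.17 and -0.16. The type 2 list, where Hc alone passed (1 of 18, 9 unadjusted), had a median of -0.34 and 15 negative differences. Over all genes tested, 13.9% had an unadjusted p below 0.05.

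**Figure D5:**
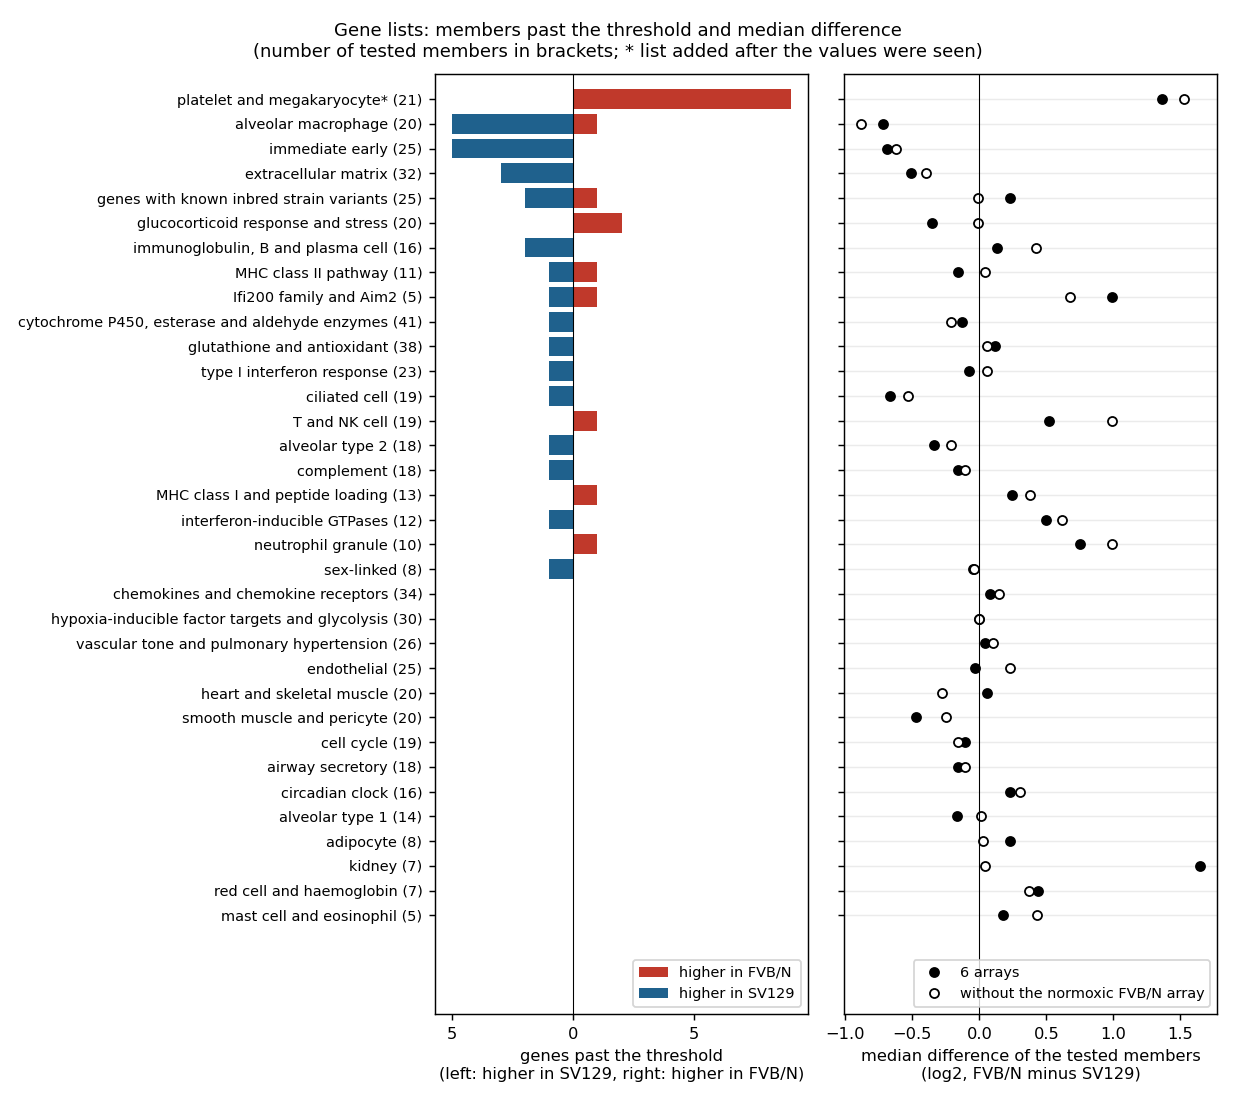
Number of tested genes past the threshold in each list, with those higher in SV129 drawn to the left and those higher in FVB/N to the right (left panel), and the median difference of the tested genes in log2 units on 6 arrays and on 5 (right panel). The asterisk marks the platelet list, added after its values were seen. It has the most genes past the threshold, 9 of 21, and the kidney list moves from a median of 1.65 on 6 arrays to 0.04 on 5.

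In the list of hypoxia-inducible factor targets and glycolysis, genes known to respond to low oxygen, 0 of 30 passed in limma, 2 were at an unadjusted p below 0.05 and the median difference was 0. The glucose transporter Slc2a1 differed by -0.05. Vascular tone and pulmonary hypertension genes gave 0 of 26 (4 unadjusted, median 0.04), with Edn1, the vasoconstrictor endothelin, at 0.15 and Nos3, the endothelial nitric oxide synthase, at 0.15. Chemokines and their receptors gave 0 of 34 (14 unadjusted, median 0.08), on a list without the platelet chemokines Ppbp and Pf4, which passed. Ccl5, a chemokine of T cells, and Cxcr2, a neutrophil receptor, passed on 5 arrays alone, at 1.83 and 2.43 (adjusted p = 0.0334 and 0.025, limma). The lists of cell cycle (0 of 19, 0 unadjusted), mast cell and eosinophil (0 of 5, 0 unadjusted) and adipocyte genes (0 of 8, 1 unadjusted) had medians of -0.11, 0.18 and 0.23.

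Enzymes of detoxification gave 1 gene on each of their lists. Mgst2, a membrane glutathione transferase, was the 1 of 38 tested glutathione and antioxidant genes and was higher in SV129 by -1.28 ± 0.257 (SE, limma adjusted p = 0.0437). Cyp3a13 was the 1 of 41 tested cytochrome P450, esterase and aldehyde genes, higher in SV129 by -1.85 ± 0.307 (SE, limma adjusted p = 0.0199). Neither passed on 5 arrays, where Cyp26b1, which breaks down retinoic acid, did (-2.93, limma adjusted p = 0.037). Among 8 tested sex-linked genes, the Y-linked Eif2s3y was lower in FVB/N by -1.05 ± 0.205 (SE, limma adjusted p = 0.0408) and passed in none of the fits without 1 array. Xist read 6.2 to 8.06 in FVB/N and 6.54 to 7.16 in SV129. The kidney and the heart and skeletal muscle lists had 0 of 7 (1 unadjusted) and 0 of 20 (2 unadjusted) past the threshold, with medians of 1.65 and 0.06 on 6 arrays and 0.04 and -0.28 on 5.

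The difference between the strains was also asked to depend on hypoxia, in a model with 6 groups over all 9 arrays. In limma 0 of 27022 probe sets passed for this interaction, with 3380 at an unadjusted p below 0.05 and a smallest adjusted p of 0.126. Among the 233 genes that differed between strains the smallest was 0.236. Fitted to the 6 arrays alone, without BL6, 206 probe sets passed in limma, and in 203 of them FVB/N minus SV129 was lower on the hypoxic than on the normoxic arrays. In the fit over all 9 arrays, where none passed, the genes with the smallest p were Mylpf, a myosin light chain of skeletal muscle, Ccl28, Adh1, the mitochondrial ND5 and Mal. On the normoxic FVB/N array Mylpf read 11.17 and Ccl28 11.48, while the other 5 arrays read 6.75 to 7.19 and 5.76 to 6.56. In all 5 genes the normoxic FVB/N array, the one with kidney and muscle transcripts, was the highest of the 6. With 1 normoxic array per strain, the strains' responses to hypoxia were compared with little precision.

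Set beside BL6, neither strain was the odd one throughout. The BL6 mean here leaves out hypoxic BL6 array 2, on which the kidney genes averaged 11.44. It lay nearer the hypoxic FVB/N mean in 110 of the 233 genes and nearer the SV129 mean in 123. Among the 80 genes higher in FVB/N, 51 had BL6 nearer FVB/N, and among the 153 higher in SV129, 94 had BL6 nearer SV129. Over all genes tested, BL6 was nearer FVB/N in 43.4%. This sorting describes these arrays and carries no test.

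Several of the genes follow one another in the order of the tested genes along a chromosome, where untested genes may lie between them. By the order of genes in the GRCm38.p6 table, 230 of the 233 could be placed, and no stretch of 5 successive tested genes held 3 past the threshold. Counted after the values were seen, 11 pairs of successive tested genes were both past it, 7 in the same direction and 4 in opposite directions. The count expected without regard to position was not computed, so these numbers are a description. The pairs in the same direction included Ms4a4b with Ms4a6c (-1.58, and -0.03 in a second probe set), 4833420G17Rik (1.84) with Tmem267, Scn2b (-1.34) with Tmprss4 (-2.06) and Slc24a3 (-1.2) with Rin2 (-1.31). Besides H2-Eb1 with H2-Ea and Ifi204 with Mndal, those in opposite directions were Rgs18 with Pla2g4a (-1.15) and Sh3gl3 (-1.6) with Adamtsl3 (1.39). Of the genes in these pairs, Ms4a6c, Scn2b, Slc24a3, Rin2, Pla2g4a, Sh3gl3 and Adamtsl3 did not pass on 5 arrays.

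Other probe sets of the same genes gave a check within the array. There were 140 for 89 of the 233 genes, 123 of them (87.9%) differed in the same direction, and 37 of these also passed the threshold. A further 3 passed in the opposite direction, those of Xaf1 (2.95), Clip4 (-1.23) and Zfp991 (-1.77), and Clip4 and Zfp991 did not pass on 5 arrays. Where probe sets of a gene disagree, these arrays do not show which strain had more of its RNA.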

How the data were processed

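Per the labels' protocols, right lung was snap frozen, RNA was purified on silica columns and target was biotin-labelled. The deposited values are linear intensity signals of 45101 probe sets. From the values, the authors had scaled the intensities of each array to a mean of 500 after trimming 2% at each end, without quantile normalization. The software was not given in the sources used here, and no detection calls were used. Another 12 arrays named in the design text were not analysed here.

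The signals were quantile normalized over 9 arrays and transformed as log2(signal + 16), on which folds of dim probe sets are understated. After 64 controls, the dimmest 40% by mean over the 4 hypoxic FVB/N and SV129 arrays were left out. limma 3.58.1 in R 4.3.3 (lmFit, eBayes with an intensity trend) was fitted to the 6 arrays with condition as a covariate (3 residual and 5.84 prior degrees of freedom) and to the 5 arrays (2 residual), with Benjamini-Hochberg adjustment over 27022 probe sets. The fits were tested on simulated data. A gene was read through its brightest probe set with 1 symbol in the platform's annotation. RefSeq's gene table and promoters of GRCm38.p6 gave gene order and the printed sequences.

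Genes named were the first 14 in each direction, past the threshold and without overlap, by the smaller of the 6-array and 5-array differences. Further ones were genes not separated on 5 arrays (up to 5), the 5 smallest interaction p values and pairs of successive tested genes. List members past the threshold (up to 6 per list) were also named, with some that did not pass. The members of the comparison and the 33 lists were chosen with earlier results of these data known, and 1 list (platelet) was added after the values were seen. The number of arrays limits the precision of every value. Alternatives were scaling, pseudocount, filter, variance prior, array weights, the arrays in the fit and each array left out.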

Additional observations from a re-analysis of the deposited data

How the results depend on the processing

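The count of 531 probe sets became 347 with the dimmest 60% left out, 858 with all 9 arrays in the fit and 286 on the 4 hypoxic arrays alone. The count of 233 genes became 410 with all 9 arrays (228 shared) and 134 on the 4 hypoxic arrays (109 shared). Fits without 1 array gave 188 to 343 probe sets and 80 to 151 genes, fewest without hypoxic FVB/N array 2 (188 and 80) and then array 6 (228 and 97). Without hypoxic SV129 array 2 the counts were 293 and 129, without array 5 343 and 151, without the normoxic FVB/N array 288 and 133 and without the normoxic SV129 array 294 and 139. The 133 genes past the threshold on 5 arrays became 74 with no filter and 84 with the dimmest 60% left out. The interaction gave 17 probe sets with median centring, 4 with a pseudocount of 64 and 206 in the 6 arrays alone, 203 of these negative. Zfp945 reversed to -0.71 with a pseudocount of 1, where each gene's brightest probe set is picked anew, and to -0.65 in its other probe set. The Zfp945 probe sets were nearly equal in mean level over the 4 hypoxic arrays, so which of them is brightest is uncertain. The direction of Xaf1 turned to 2.95 both in its other probe set and with the filter over 9 arrays, which picks that probe set. 4833420G17Rik turned to -1.08 and H2-Aa to 1.8 in another probe set. Apart from the change of probe set, the cause was not tested. Whether the array numbers of the titles pair the arrays is not known. The only deviations that could be compared correlated at -0.19, -0.00452 and -0.0661. They rest on 1 or 2 shared numbers per comparison, too few to decide it. With the number as a replicate block, 215 probe sets and 93 genes (90 shared) passed on 9 arrays, and 576 and 268 (156 shared) on 6. Of 74 named genes past the threshold, 39 passed in every fit without 1 array, 7 in none, and 27 of the 28 largest in all 6, Gp9 being the exception. The deposited signals without quantile normalization and median centring moved the median difference of all genes to -0.052 and 0.031 and reversed none of the 74. Without detection calls, levels near 4 cannot be told from background.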

Other observations

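Genes outside the lists were picked after their values were seen, and they stand for no gene group. The adherens junction cadherin Cdh1 was higher in SV129 (-1.48 ± 0.177 SE, limma adjusted p = 0.00414), as was the protease inhibitor Spint1 (-1.32 ± 0.256 SE, limma adjusted p = 0.0393). Cdh1 read 10.84, 11.03 and 11.3 in FVB/N against 12.44, 12.18 and 13 in SV129, without overlap, and it also passed on 5 arrays, which Spint1 did not. The membrane mucin Muc4 differed by -2.66 ± 0.471 (SE, limma adjusted p = 0.0267) and by -1.86 on 5 arrays, where it did not pass. Mpeg1, a pore-forming protein of macrophages, was higher in SV129 by -1.58 ± 0.176 (SE, limma adjusted p = 0.00304), and Cybb, the catalytic subunit of the phagocyte oxidase, by -1.83 ± 0.31 (SE, limma adjusted p = 0.0214). Both also passed on 5 arrays.

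Pdgfd, a platelet-derived growth factor chain, read 10.13, 10.36 and 9.46 in FVB/N against 7.52, 7.41 and 7.87 in SV129, higher by 2.38 ± 0.286 (SE, limma adjusted p = 0.00414), and its second probe set gave 0.63 (limma adjusted p = 0.332). Fgf1 was higher in SV129 by -1.73 ± 0.202 (SE, limma adjusted p = 0.00393). The cytokine Il6 differed by -2.04 ± 0.369 (SE, limma adjusted p = 0.0289), with no overlap of the strains, though it did not pass on 5 arrays. Among 295 tested zinc finger genes with Zfp symbols, 10 passed (3.39%, against 1.83% of all genes), 5 higher in FVB/N and 5 higher in SV129. The largest beside Zfp945 and Zfp949 were Zfp994 (2.32) and Zfp33b (-2.28).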
